A study of Mus musculus with 24 samples.

Results

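The ribosome biogenesis factors described here are 44 mouse genes whose products transcribe, modify, cut and assemble ribosomal RNA. They were chosen by gene symbol, with earlier results of these data known, so shares of members beside those of all genes are descriptive. All 44 were matched to 1 probe set each on the array, of 23279 genes with a symbol, and all 44 passed the filter on dim probe sets that left 14064 genes tested. Levels came from 24 arrays of satellite cells and endothelial cells sorted from the tibialis anterior, a muscle of the lower leg, of mice. The muscle was injured with cardiotoxin, a venom toxin that destroys muscle fibres, and was taken 2, 4 or 8 days later, or without injury (day 0).

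Satellite cells (SC) are muscle's own stem cells. Their gate took cells with alpha7-integrin and with positive or low CD34 that lacked CD45, Sca1 and CD31. Endothelial cells (EC) line the blood vessels, and their gate took cells with Sca1, CD34 and CD31 that lacked CD45. The 8 groups were SC of days 0, 2, 4 and 8 and EC of days 0, 2, 4 and 8, with 3 arrays each. Genotype, strain and age are not given in the sources used here, and all groups share the sorting and the amplification from picograms of RNA. The titles call the replicates biological without saying whether each came from its own animals, so p-values rest on the spread between these samples. For each gene that spread was pooled over all 8 groups and not taken from the groups compared alone. Values are log2 levels, a difference of 1 is a doubling, and the number of arrays limits their precision.

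Ribosomes are built mainly in the nucleolus. RNA polymerase I makes one long precursor RNA, small nucleolar ribonucleoproteins (snoRNPs) modify it, and a large set of assembly factors folds and cuts it into the small (40S) and large (60S) subunits. The transcription factor Myc, paired with Max, is known to bind the DNA motif CACGTG, called an E-box, and to raise many genes of this pathway. Resting stem cells and resting endothelium are known for low growth, and both enter division after muscle injury.

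E-boxes lay in the promoters of 12 of the 40 members that have an entry in the RefSeq promoter table (build GRCm38.p6, 250 bases before to 50 after each transcript start). Npm1, Fbl, Bop1 and Rrs1 have none. That is 30% of the members, against 11.1% of the 10874 tested genes with an entry (1212) and 8.09% of all 27025 genes in the table. The motif reads the same on both strands. The sites sat close behind the start. Of 13 sites, 9 began between bases 3 and 41 of the transcript, counted from 1 at the start. In those 50 bases the motif was found in 22.5% of the members (9 of 40) and in 1.76% of the tested genes (191 of 10874). The windows of 30 bases around these 9 sites are shown because sites in this stretch recur in genes of different roles, at differing positions within it. The first 6 belong to members that were called higher in EC on day 2 against day 0, and capitals mark the E-box.
Pno1, chr11:17211540-17211569, minus strand: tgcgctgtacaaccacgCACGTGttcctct
Utp20, chr10:88826765-88826794, minus strand: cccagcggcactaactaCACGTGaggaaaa
Ltv1, chr10:13193092-13193121, minus strand: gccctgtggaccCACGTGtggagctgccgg
Tsr1, chr11:74898092-74898121, plus strand: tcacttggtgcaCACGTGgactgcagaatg
Pes1, chr11:3963965-3963994, plus strand: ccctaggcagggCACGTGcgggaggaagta
Mybbp1a, chr11:72441347-72441376, plus strand: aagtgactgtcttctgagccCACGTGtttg
Grwd1, chr7:45830740-45830769, minus strand: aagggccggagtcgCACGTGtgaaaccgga
Nle1, chr11:82908355-82908384, minus strand: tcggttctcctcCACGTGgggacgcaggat
Wdr43, chr17:71616220-71616249, plus strand: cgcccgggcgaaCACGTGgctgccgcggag

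The other 4 sites lay before the start. Rrn3 held a pair of them, at 215 and 48 bases before it, Imp4 one at 121 and Nop2 one at 60. The Rrn3 and Nop2 sites nearest the start are shown as examples of sites before it.
Rrn3, chr16:13780639-13780668, plus strand: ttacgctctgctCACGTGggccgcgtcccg
Nop2, chr6:125131811-125131840, plus strand: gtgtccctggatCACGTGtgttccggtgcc
A second motif, CCGGAAG or its reverse complement CTTCCGG, which proteins of the ETS family are known to bind, was in 37.5% of the members (15 of 40), 18.2% of the tested genes and 9.93% of all genes in the table. The TATA motif TATAAA or its reverse complement TTTATA was in 7.5% of the members, 9.59% of the tested genes and 15.7% of all genes in the table. The forms of one motif on the 2 strands can overlap, and a promoter counts once. These are matches of letters and do not show binding.

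**Figure D1:**
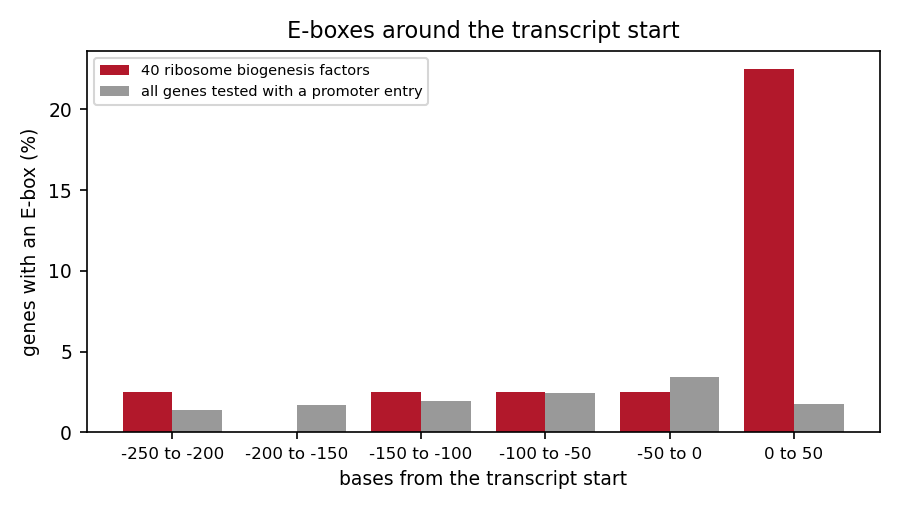
Share of genes with an E-box (y axis, %) in each stretch of 50 bases around the transcript start (x axis, bases from the start), for the 40 members with a promoter entry (red) and the 10874 tested genes with one (grey). The members stand at 22.5% in the 50 bases after the start, against 1.76% of tested genes, and at 0% to 2.5% in each stretch before it.

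The arrays and the identity of the sorted cells bear on every value that follows. Array medians lay between 4.11 and 4.40, and arrays of one group correlated at 0.863 to 0.957. Satellite cell markers (9 genes) averaged 8.65 to 8.87 on SC arrays of day 0 and 4.13 to 4.43 on EC arrays of day 0. On day 2 they averaged 4.90 to 5.14 on SC arrays, and 9 of 9 were called lower than on day 0, as were 10 of 10 pericyte and smooth muscle markers. The pericyte and smooth muscle markers averaged 9.60 to 10.35 on SC arrays of day 0 and 6.52 to 8.19 on day 2. Their SC group mean was 7.18 on day 4 and 8.95 on day 8. In EC they averaged 7.08 to 7.98 on day 0 and 5.56 to 6.81 on day 2. Their part in the SC values of day 0 was not tested. Endothelial markers (13 genes) stayed between 9.56 and 10.21 on all EC arrays. Although CD45-positive cells were sorted out, the 19 leukocyte markers averaged 8.92 to 10.56 on SC arrays of day 2, against 3.70 to 4.32 on day 0, and 5.79 to 8.16 on EC arrays of day 2, against 3.91 to 4.02 on day 0. Of the 19, all 19 were called higher in SC on day 2 and 11 in EC, and 14 in EC on day 4. Endothelial markers averaged 6.15 to 6.30 on SC arrays of day 0 and were above that on all 9 SC arrays after injury, at 6.72, 8.66 and 7.00 on day 2, 6.85 to 7.60 on day 4 and 6.95 to 8.05 on day 8. Of the 13, 7 were called higher in SC on day 2, 5 on day 4 and 7 on day 8. SC day 2 replicate 2 (8.66) was the highest of them. Mature myofibre markers (8 genes) averaged 7.02 to 7.49 in SC on day 0 and 7.98, 10.54 and 10.55 on day 8, where 6 of 8 were called higher and replicate 1 stood apart. In EC they averaged 4.75 to 5.38 on day 2, against 6.47 to 7.40 on day 0, and 4 of 8 were called lower. Fibro-adipogenic markers (7 genes) averaged 5.83 to 6.31 in SC on day 2, against 7.22 to 7.57 on day 0. In EC they averaged 4.25 to 4.42 on day 0 and 4.00 to 4.55 on day 2. They then averaged 5.08 to 5.85 in EC on day 4 and 5.34 to 6.20 on day 8. Their part in the EC values was not tested.

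Over all arrays the members were brighter than most genes, with a median level of 6.53 against 5.70 over all genes tested, above 69% of them. Ncl had the highest mean level of a member's probe set (9.65) and Rrp1b the lowest (4.58). The probe sets of Bop1, Fbl, Nle1, Polr1b, Rrp1b and Wdr12 averaged less than 1 above the mean array median of 4.25, where a change in RNA can be understated. Probe sets differ in how strongly they bind, so levels are compared between samples and not between genes.

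In endothelial cells the ribosome biogenesis factors stood highest on day 2. Averaged over the 44 members, the level was 6.00, 6.17 and 5.77 on the 3 arrays of day 0, 7.12, 6.85 and 6.74 on day 2, 6.25, 6.21 and 6.46 on day 4 and 6.23, 6.04 and 6.12 on day 8. All arrays of day 2 lay above all EC arrays of the other days. The group mean was highest on day 2 for 40 of the 44 members (90.9%), as it was for 27.4% of all genes tested. Between day 2 and day 0 the median difference of a member was 0.90, against -0.01 over all genes, and 43 of 44 differences were above 0, against 48.8% of all genes. Nip7, a 60S assembly factor, was the exception (-0.26, SE 0.31, adjusted p = 0.707).

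In satellite cells the pattern was flatter. The mean over the members was 6.38, 6.43 and 6.45 on day 0, 7.01, 6.94 and 6.88 on day 2, 6.49, 6.72 and 6.80 on day 4 and 6.82, 6.62 and 6.62 on day 8. Day 0 arrays were the lowest and day 2 arrays the highest, with no overlap between the groups of these days. The group mean was highest on day 2 for 27 of 44 members (61.4%), against 29.1% of all genes. In sorted cells pooled on an array, fewer cells of a type and less RNA per cell cannot be told apart, and neither can a change in satellite cells and a change in which cells passed the gate.

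**Figure D2:**
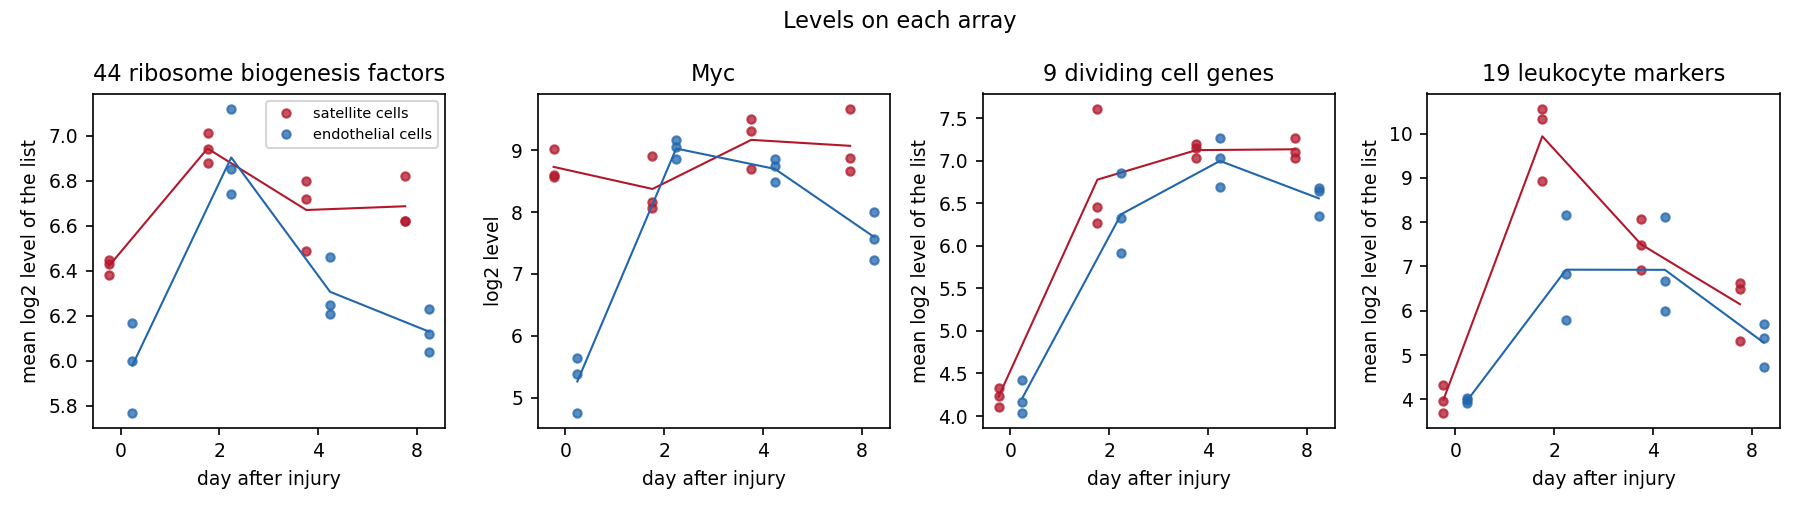
Log2 levels on each of the 24 arrays (points) by day after injury (x axis), with lines through the group means, for satellite cells (red) and endothelial cells (blue): the mean over the 44 members, Myc, the mean over 9 dividing cell genes and the mean over 19 leukocyte markers. The members peak on day 2 in endothelial cells (6.74 to 7.12 on the 3 arrays), and Myc is high there on days 2 and 4.

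On day 2 against day 0, 17 of the 44 members (38.6%) rose in EC and 0 fell, where a call needs an adjusted p under 0.05 (limma, Benjamini-Hochberg over 14064 genes) and a log2 difference of at least 1. Of all genes tested, 3.73% rose and 3.01% fell by this rule. With the adjusted p alone 19 of the 44 members were higher, against 715 of the 14064 genes (5.08%). All 3 arrays of day 2 lay above all 3 of day 0 in 30 members (68.2%), against 16.1% of all genes. In SC, 5 members rose and 0 fell, against 10.9% and 9.67% of all genes, so the share of members that rose (11.4%) was close to that of all genes. The adjusted p alone gave 13 of the 44 members in SC, against 2073 of the 14064 genes (14.7%). In SC 20 members (45.5%) had day 2 arrays above all day 0 arrays (17.9% of all genes). The median difference was 0.50, against -0.03 over all genes. At an unadjusted p under 0.05, 34 members were higher and 0 lower in EC, and 22 higher and 0 lower in SC. Counts at an unadjusted p were made for the members only, so no share of all genes stands beside them. SC differences were mostly positive and mostly smaller than a doubling.

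Without EC day 2 replicate 1, which had the highest leukocyte marker mean of its group (8.16), 11 members rose in EC, against 2.86% of all genes. The calls of Bysl, Ddx21, Nhp2, Polr1a, Polr1b and Tsr1 were lost. Without SC day 2 replicate 2, 5 members rose in SC, against 12.5% of all genes. The part that leukocyte RNA plays in the values of day 2 was not tested. On the EC arrays of day 2 the leukocyte mean was 8.16, 5.79 and 6.83 and the member mean 7.12, 6.85 and 6.74, in the same order of replicates. On EC arrays of day 4 the leukocyte mean was 8.11, 6.67 and 5.99, with a group mean of 6.92 on day 4 and 6.93 on day 2, while the member mean was 6.21 to 6.46 on day 4.

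RNA polymerase I and its initiation factor are covered by 4 members. Of these, 2 rose in EC on day 2, and 0 were called in SC on any day. Polr1a, the largest subunit of the polymerase, measured 5.66, 6.01 and 5.57 in EC on day 0, 7.35, 6.50 and 6.86 on day 2, 6.52, 5.78 and 6.63 on day 4 and 5.92, 6.18 and 5.46 on day 8. Day 2 arrays lay above day 0 arrays, and the rise was 1.15 (SE 0.26, adjusted p = 0.00783). SC measured 6.80, 6.48 and 7.02 on day 0 and 7.01, 7.00 and 7.40 on day 2, which overlapped (0.37, SE 0.26, adjusted p = 0.325). Polr1b, which forms the catalytic core with it, measured 5.59, 5.64 and 5.38 in EC on day 2, against 4.13, 4.71 and 4.63 on day 0. It rose by 1.05 (SE 0.29, adjusted p = 0.0256), and in SC it measured 5.56, 4.74 and 5.15 on day 2, against 5.15, 5.05 and 4.68 on day 0, which overlapped. The EC call of Polr1a was lost without EC day 2 replicate 1 (0.93, adjusted p = 0.0561), and that of Polr1b without EC day 0 replicate 1 or EC day 2 replicate 1 or 2 (adjusted p up to 0.123).

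Polr1c, a subunit shared with RNA polymerase III, was not called. It measured 8.26, 7.71 and 7.90 in EC on day 2, against 6.92, 7.73 and 7.05 on day 0, and 7.45, 8.36 and 7.53 in SC on day 2, against 8.46, 8.04 and 7.50 on day 0. The groups overlapped in both cell types. Rrn3, the factor that brings the polymerase to its promoter, measured 7.17, 7.10 and 7.19 in EC on day 2, against 6.69, 7.00 and 6.38 on day 0. The arrays did not overlap, but the difference of 0.47 missed the threshold (SE 0.26, adjusted p = 0.327). Rrn3 in SC measured 7.05, 7.45 and 6.88 on day 2 and 5.98, 6.58 and 6.94 on day 0 (0.62, SE 0.26, adjusted p = 0.085).

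The snoRNP proteins and nucleolar chaperones comprise 9 members, of which 3 rose in EC on day 2 and 1 in SC. Nop58, a core protein of the box C/D snoRNPs that guide ribosomal RNA methylation, is the one member whose response was called different between the cell types. In EC it measured 6.46, 6.94 and 6.44 on day 0, 8.60, 8.42 and 7.72 on day 2, 7.56, 7.41 and 7.66 on day 4 and 7.05, 7.24 and 7.39 on day 8. SC levels were 8.25, 7.87 and 8.33 on day 0, 8.45, 8.39 and 7.81 on day 2, 8.25, 8.52 and 8.40 on day 4 and 9.06, 8.60 and 8.93 on day 8. EC started low and reached the SC range on day 2, whereas SC of day 2 overlapped SC of day 0. The rise in EC was 1.64 (SE 0.24, 3.11-fold, adjusted p = 0.000166), the SC difference was 0.07 (SE 0.24, adjusted p = 0.879), and the SC response minus the EC response was -1.57 (SE 0.34, 95% interval -2.27 to -0.87, adjusted p = 0.00405).

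Nhp2, a core protein of the box H/ACA snoRNPs that guide pseudouridylation, measured 8.55, 7.66 and 8.31 in EC on day 2, against 7.09, 7.10 and 3.85 on day 0. Replicate 3 of day 0 lay far below the others. The rise of 2.16 (SE 0.56, adjusted p = 0.0181) was 1.08 without it (adjusted p = 0.0692), which ends the call, as does leaving out EC day 2 replicate 1 (adjusted p = 0.0772) or 3 (adjusted p = 0.0528). In SC, Nhp2 measured 7.90, 8.65 and 7.85 on day 2 and 7.04, 6.38 and 6.36 on day 0, without overlap. It rose by 1.54 (SE 0.56, adjusted p = 0.0444), and the call was lost in 13 of the alternatives tried, among them leaving out SC day 0 replicate 2 or 3 or any SC array of day 2 (adjusted p up to 0.138).

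Gar1, the partner of Nhp2 in the same particles, rose in EC by 1.41 (SE 0.26, adjusted p = 0.00144) and was at 0.72 in SC (adjusted p = 0.0419, under the fold minimum). Dkc1, the pseudouridine synthase of these particles, was not called in either cell type (0.49 in EC, SE 0.29, and 0.54 in SC, SE 0.29). Nop56, the partner of Nop58, was at 0.83 in EC (SE 0.27, adjusted p = 0.0583) and 0.15 in SC. Of the chaperones, Ncl (nucleolin) was at 0.93 (SE 0.20, adjusted p = 0.00592) and Npm1 (nucleophosmin) at 0.83 (SE 0.19, adjusted p = 0.00657) in EC, both past the p threshold but short of a doubling. Nolc1, which escorts snoRNPs, was at 0.53 in EC and 0.50 in SC, not called in either.

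Fbl encodes fibrillarin, the methyltransferase of the box C/D particles, and its probe set was dim. In EC it measured 5.02, 3.79 and 5.09 on day 0, 5.32, 4.85 and 5.29 on day 2, 4.92, 5.05 and 4.89 on day 4 and 6.24, 6.45 and 5.94 on day 8. Its largest difference was on EC day 8 (1.58, SE 0.51, adjusted p = 0.115), which was not called. SC levels of Fbl were 4.30, 4.28 and 4.42 on day 0 and 5.62, 2.76 and 5.17 on day 2, a spread wider than that of day 0.

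The small subunit processome and later 40S assembly factors comprise 14 members, and 6 of them rose in EC on day 2, against 2 in SC. Pno1, which stays with the 40S precursor through its last maturation steps, was the member called in the most comparisons with day 0. It measured 4.49, 5.27 and 4.01 in EC on day 0, 6.85, 6.78 and 6.43 on day 2, 6.01, 5.30 and 6.17 on day 4 and 5.84, 5.07 and 5.51 on day 8. SC levels were 5.30, 5.21 and 5.10 on day 0, 6.44, 6.64 and 6.46 on day 2, 6.23, 6.39 and 6.46 on day 4 and 5.89, 5.97 and 5.52 on day 8. Day 2 arrays of both cell types lay above all their day 0 arrays. It rose in EC by 2.10 on day 2 (SE 0.28, 4.28-fold, adjusted p = 5.93e-05) and by 1.24 on day 4 (SE 0.28, adjusted p = 0.00744), and in SC by 1.31 on day 2 (SE 0.28, adjusted p = 0.00108) and by 1.16 on day 4 (SE 0.28, adjusted p = 0.00545). The EC call of day 4 was lost without EC day 0 replicate 3 (adjusted p = 0.0581).

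Ltv1, which accompanies the 40S precursor into the cytoplasm, measured 7.62, 7.26 and 6.98 in EC on day 2, against 5.96, 5.91 and 5.33 on day 0, and rose by 1.55 (SE 0.34, adjusted p = 0.00557). In SC it measured 7.93, 7.08 and 7.24 on day 2 and 6.39, 6.93 and 6.74 on day 0, without overlap but not called (0.73, SE 0.34, adjusted p = 0.116). Heatr1, an early processome protein that in yeast and human cells also bears on transcription by RNA polymerase I, measured 7.65, 7.42 and 7.33 in EC on day 2, against 6.37, 6.30 and 5.43 on day 0. It rose by 1.44 (SE 0.29, adjusted p = 0.00371). In SC it measured 7.98, 6.79 and 7.47 on day 2 and 6.94, 6.26 and 6.56 on day 0, which overlapped (0.83, SE 0.29, adjusted p = 0.0407, under the fold minimum).

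Bysl, which acts late in 40S assembly, was called higher in EC and, on another day, lower in SC. In EC it measured 4.87, 5.72 and 4.87 on day 0, 6.27, 6.29 and 6.45 on day 2, 5.34, 5.48 and 5.32 on day 4 and 5.55, 4.91 and 5.53 on day 8. SC levels were 6.92, 6.42 and 5.32 on day 0, 6.75, 5.51 and 6.13 on day 2, 4.84, 5.01 and 5.49 on day 4 and 5.81, 5.49 and 5.93 on day 8. EC rose on day 2 by 1.19 (SE 0.35, adjusted p = 0.0365), and SC fell by 1.10 on day 4 (SE 0.35, adjusted p = 0.0329), the one fall of a member below day 0. Both calls were lost in 6 alternatives each. The SC call was lost without SC day 0 replicate 1 or 2 or SC day 4 replicate 1 or 2 (adjusted p up to 0.187), and the EC call without EC day 0 replicate 1 or 3 or any EC array of day 2 (adjusted p up to 0.136).

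Utp20, a large scaffold of the processome, rose in EC by 1.29 (SE 0.22, adjusted p = 0.000685), and Tsr1, a cytoplasmic 40S factor, by 1.07 (SE 0.27, adjusted p = 0.0155). Neither was called in SC (0.49 and 0.10). The Tsr1 call was lost without EC day 0 replicate 1 (adjusted p = 0.0591) or EC day 2 replicate 1 (adjusted p = 0.112). Noc4l, a 40S factor known from yeast to work with Nop14, rose in SC by 1.04 on day 2 (SE 0.31, adjusted p = 0.0137) and by 1.25 on day 4 (SE 0.31, adjusted p = 0.00634), and was at 0.89 in EC on day 2 (SE 0.31, adjusted p = 0.0749). Its SC call was lost on day 2 without SC day 0 replicate 1 or 3 or SC day 2 replicate 1 (0.68 to 0.99), and on day 4 without SC day 4 replicate 1 (0.88). Nop14 itself was at 0.60 in EC and -0.14 in SC. The early processome proteins Wdr43, Wdr75 and Utp15 were at 0.99, 0.97 and 0.28 in EC, and the snoRNP-bound Rrp9 and Imp4 at 0.64 and 0.41. The methyltransferase Emg1 was at 0.34 in EC. None of these 7 was called in EC or in SC on day 2.

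The 60S assembly factors comprise 14 members, of which 3 rose in EC on day 2 and 2 in SC. Noc2l, known from yeast as a 60S export factor and from human cells as a nuclear repressor, had the largest rise of a member in SC. It measured 7.11, 6.40 and 6.59 in SC on day 0, 8.41, 8.57 and 8.56 on day 2, 7.02, 6.56 and 7.19 on day 4 and 7.47, 7.52 and 7.56 on day 8. Day 2 stood above all other SC arrays. The rise was 1.81 on day 2 (SE 0.28, 3.51-fold, adjusted p = 4.37e-05), and day 4 against day 2 fell by 1.59 (SE 0.28, adjusted p = 0.000462). It measured 8.21, 7.46 and 7.59 in EC on day 2, against 6.55, 6.94 and 5.92 on day 0, and rose by 1.28 (SE 0.28, adjusted p = 0.00597).

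Mrto4, which holds the place of the ribosomal stalk on the 60S precursor, was raised in EC on day 2 alone among the days measured. In EC it measured 5.25, 5.26 and 5.42 on day 0, 6.72, 6.88 and 6.31 on day 2, 5.19, 5.25 and 5.59 on day 4 and 5.54, 5.56 and 5.19 on day 8. EC of day 2 stood alone above EC of the other days. The rise was 1.32 (SE 0.24, adjusted p = 0.00156), and day 4 against day 2 fell by 1.29 (SE 0.24, adjusted p = 0.0145), a call lost without EC day 2 replicate 1 or 2 or EC day 4 replicate 1 or 2 (adjusted p up to 0.089). SC levels were 6.79, 6.55 and 6.45 on day 0 and 7.01, 6.66 and 7.21 on day 2, which overlapped (0.36, SE 0.24, adjusted p = 0.3). The difference between the responses was not called (-0.96, SE 0.35, adjusted p = 0.0768).

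Pes1, a subunit of the PeBoW complex of 60S maturation, measured 6.70, 7.40 and 7.05 in EC on day 2, against 6.06, 6.29 and 5.72 on day 0, and rose by 1.03 (SE 0.30, adjusted p = 0.0356). In SC it measured 7.26, 7.88 and 6.99 on day 2, against 5.71, 6.32 and 6.72 on day 0, and rose by 1.13 on day 2 (SE 0.30, adjusted p = 0.00712) and by 1.01 on day 4 (SE 0.30, adjusted p = 0.0235). Its differences lay close to the fold minimum, and the EC call was lost without EC day 0 replicate 1 or 3 or EC day 2 replicate 2 or 3 (adjusted p up to 0.158). The SC call was lost on day 2 without SC day 0 replicate 1 or SC day 2 replicate 2 (0.86 and 0.88), and on day 4 without SC day 0 replicate 1 or SC day 4 replicate 1 or 2 (adjusted p up to 0.137). The other PeBoW subunits were not called: Bop1 was at 0.94 in SC (SE 0.30, adjusted p = 0.02) and 0.27 in EC, and Wdr12 at 0.70 in SC and 0.83 in EC.

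The other 60S factors were not called on day 2 in either cell type. In EC the RNA methyltransferase Nop2 was at 0.57, Nop16 at 1.01 (SE 0.39, adjusted p = 0.121), Nle1 at 0.90 and Grwd1, a histone and ribosome chaperone, at 0.76. Ppan was at 0.72, Rrs1 at 0.64, Noc3l at 0.59 and Rrp1b at 0.41. Of these 8 in SC, Nop2 (0.76, adjusted p = 0.0131), Rrp1b (0.78, adjusted p = 0.025) and Rrs1 (0.75, adjusted p = 0.0498) passed the p threshold alone, and Nle1, Ppan and Noc3l lay below 0 (-0.09, -0.17 and -0.24).

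All 3 of the other nucleolar regulators rose in EC on day 2. Gnl3, or nucleostemin, a nucleolar GTPase known from dividing stem cells, measured 8.27, 8.09 and 7.54 in EC on day 2, against 6.77, 6.83 and 5.94 on day 0, and rose by 1.45 (SE 0.28, adjusted p = 0.00207). Mybbp1a, a nucleolar partner of RNA polymerase I, measured 7.98, 7.12 and 6.93 in EC on day 2, against 6.28, 5.82 and 5.95 on day 0, and rose by 1.33 (SE 0.25, adjusted p = 0.00215). Ddx21, an RNA helicase, measured 8.29, 7.77 and 7.78 in EC on day 2, against 6.96, 6.95 and 6.49 on day 0, and rose by 1.14 (SE 0.23, adjusted p = 0.00293). In each gene the arrays of the groups did not overlap. The Ddx21 rise was just under a doubling without EC day 0 replicate 3 (0.99) or EC day 2 replicate 1 (0.97).

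In SC all 3 were above day 0 on every array of day 2, but none was called. Gnl3 measured 8.01, 8.31 and 8.03 on day 2 and 7.82, 7.61 and 7.29 on day 0 (0.54, SE 0.28, adjusted p = 0.161). Mybbp1a measured 7.07, 7.36 and 7.18 on day 2 and 6.42, 6.94 and 6.86 on day 0 (0.46, SE 0.25, adjusted p = 0.195). Ddx21 measured 7.83, 7.87 and 7.99 on day 2 and 6.74, 7.04 and 7.15 on day 0, and its difference of 0.92 (SE 0.23, adjusted p = 0.0039) passed the p threshold but not the fold minimum.

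**Figure D3:**
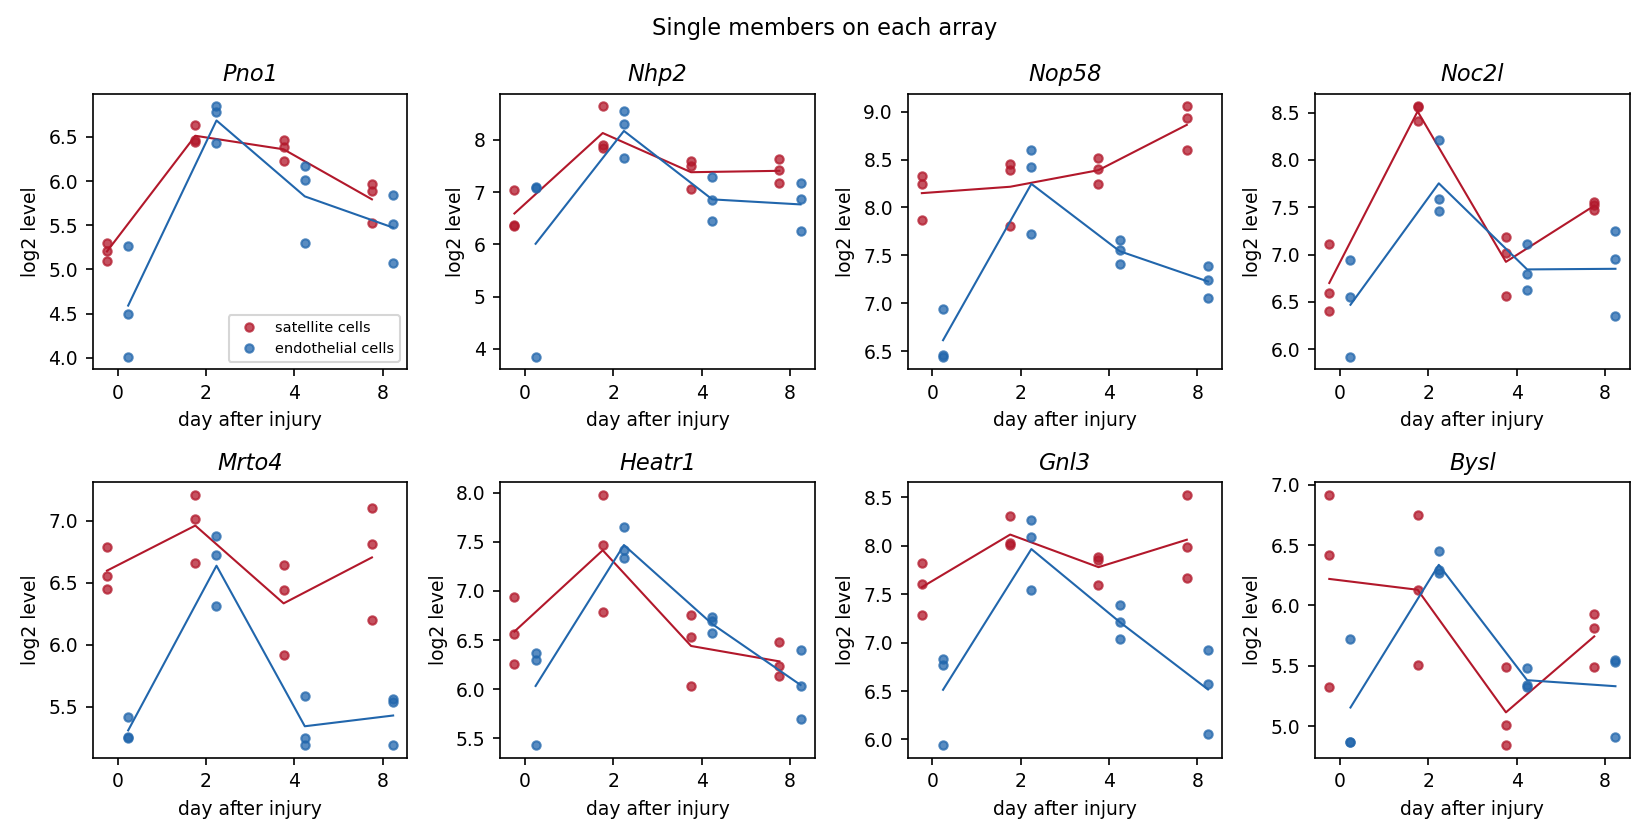
Log2 levels of 8 members on each array (points) by day after injury (x axis), with lines through the group means, for satellite cells (red) and endothelial cells (blue). Endothelial Nop58 and Mrto4 meet the satellite range on day 2, and the low day 0 array of Nhp2 in endothelial cells (3.85) is visible.

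EC levels of days 4 and 8 were closer to day 0. On day 4, 1 member was above day 0 (Pno1) and 0 below it, against 3.11% and 2.22% of all genes, and the median difference was 0.32, against -0.02 over all genes. On day 8, 0 were above and 0 below (1.11% and 0.946% of all genes), with a median of 0.11. On day 8, limma gave 4 members above and 1 below day 0 at an unadjusted p under 0.05. Day 4 against day 2 gave a median of -0.62, and 42 of the 44 differences were below 0, the exceptions being Nip7 (0.13) and Polr1c (0.03). Of these, 1 was called lower (Mrto4), against 0.107% of all genes, while 23 were lower at an unadjusted p under 0.05. The 42 differences below 0 and the counts at an unadjusted p have no share of all genes beside them here. The comparisons with day 0 share the 3 EC arrays of that day.

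In SC, 3 members were above day 0 on day 4 (Noc4l, Pno1 and Pes1) and 1 below it (Bysl), against 6.53% and 5.47% of all genes. The leukocyte markers averaged 8.08, 7.48 and 6.93 on these SC arrays of day 4, against 3.70 to 4.32 on day 0. Satellite cell markers averaged 6.77, 7.59 and 7.58 there, against 8.65 to 8.87 on day 0. The part of either in the day 4 calls was not tested. On day 8, 0 were above and 0 below (4.38% and 2% of all genes), and limma gave 8 above and 0 below at an unadjusted p under 0.05. The count at an unadjusted p was made for the members only. The median difference was 0.19 on day 4 and 0.32 on day 8. Day 4 against day 2 gave 1 called fall, of Noc2l, against 5.76% of all genes, and a median of -0.31. These comparisons share the SC arrays of day 0.

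**Figure D4:**
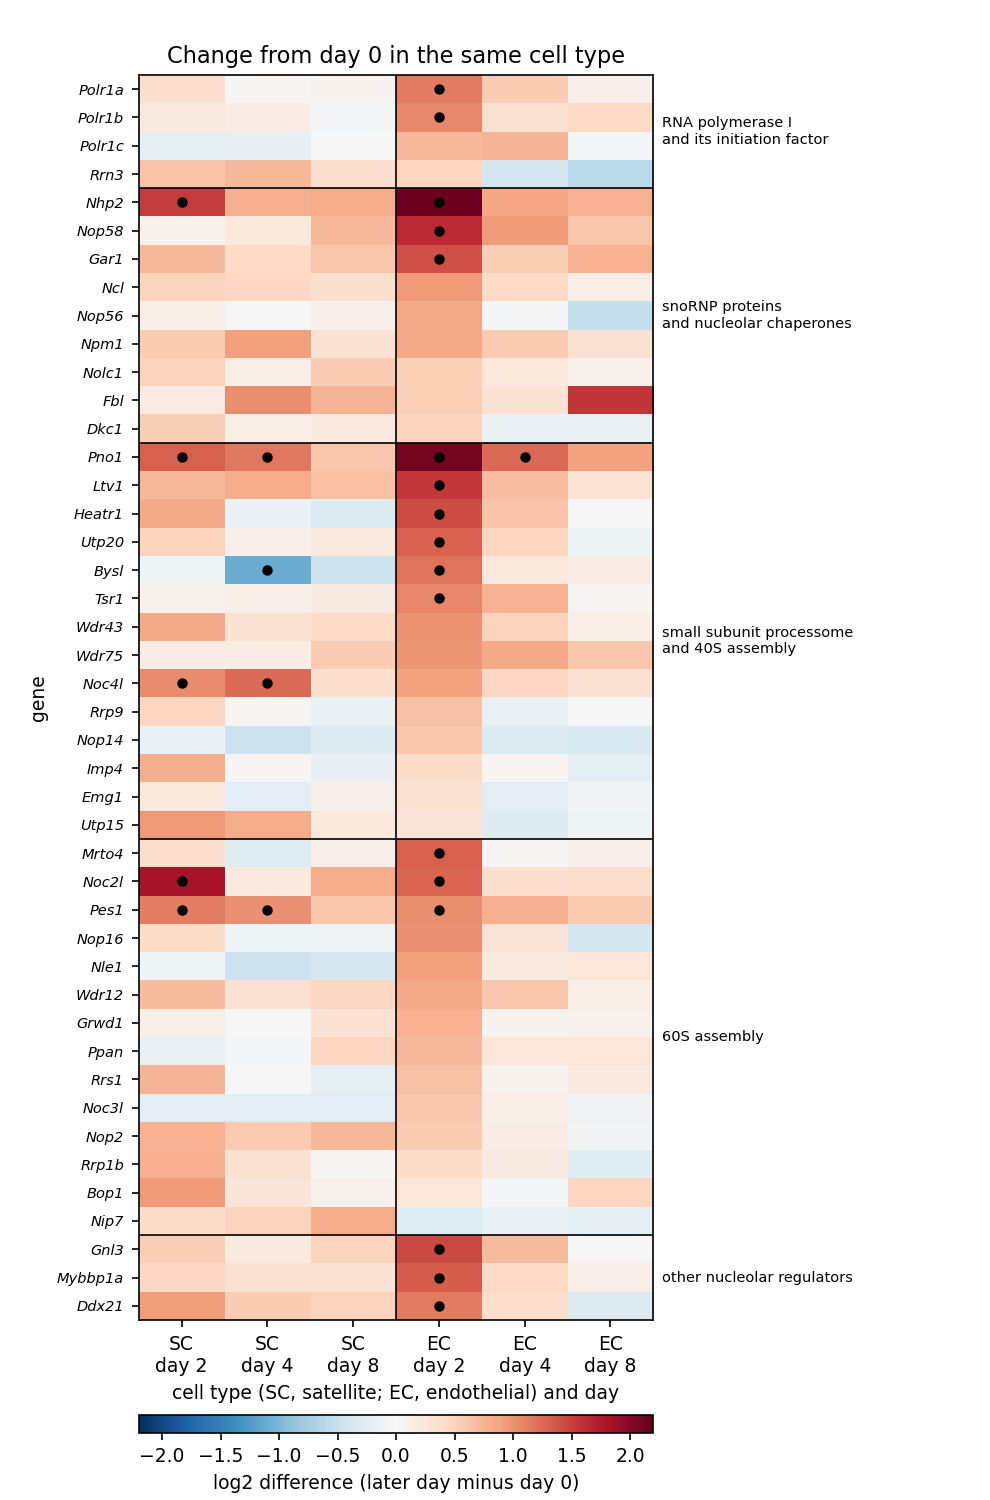
Log2 difference of each member (rows, by role) from day 0 of the same cell type (columns, days 2, 4 and 8 of SC and of EC), from blue (lower) to red (higher), with a black point on each called difference. The EC day 2 column holds 17 points and the SC day 2 column 5.

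Levels of SC and EC were also compared on each day. On day 0 the SC mean was above the EC mean in 37 of 44 members, with a median difference of 0.43, against -0.01 over all genes. The count of 37 has no share of all genes beside it here. Of the 44, 5 were called higher in SC (11.4%, against 7.59% of all genes, a share not far from the background) and 0 lower. They were Nop58 (1.54, SE 0.24, adjusted p = 4.22e-05), Mrto4 (1.28, SE 0.24, adjusted p = 0.000421), Gnl3 (1.06, SE 0.28), Polr1a (1.02, SE 0.26) and Bysl (1.07, SE 0.35). The calls of Bysl, Gnl3 and Polr1a were lost without some single arrays, with differences down to 0.72 (Bysl, without SC day 0 replicate 1; also SC day 0 replicate 2 and EC day 0 replicates 1 and 3), 0.78 (Gnl3, without EC day 0 replicate 3; also SC day 0 replicate 1) and 0.89 (Polr1a, without SC day 0 replicate 3; also EC day 0 replicates 1 and 3). Those of Nop58 and Mrto4 stood in every alternative run. The adjusted p alone gave 10 of the 44 members, against 1407 of the 14064 genes tested (10%). With each array centred on its own median 2 were called, against 6.14% of all genes, and the median of all genes then moved to -0.17.

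On day 2 the median was 0.02 and 0 members were called higher (5.82% of all genes) or lower, with 3 higher and 1 lower in limma at an unadjusted p under 0.05. The count at an unadjusted p was not made over all genes. On day 4 the median was 0.39 and 1 member, Ltv1, was called higher in SC (1.10, SE 0.34, adjusted p = 0.0266, against 5.2% of all genes), a call lost without EC day 4 replicate 2 or SC day 4 replicate 1 or 3 (adjusted p up to 0.125). On day 8 the median was 0.64, against -0.03 over all genes, and 6 were called (7.05% of all genes): Nop58 (1.64), Gnl3 (1.55), Ltv1 (1.33), Nop56 (1.30), Mrto4 (1.28) and Ppan (1.03). Ltv1 was not called without EC day 8 replicate 2 or SC day 8 replicate 2 (0.94 and 1.05), nor Ppan without EC day 8 replicate 1 or 3 or SC day 8 replicate 2 (0.71 to 1.01). The adjusted p alone gave 15 of the 44 members on day 8, against 1323 of the 14064 genes tested (9.41%). Without SC day 8 replicate 1, the array with the lower myofibre markers, 7 members were called, against 6.88% of all genes. On the SC arrays of day 8 myofibre markers averaged 7.98 to 10.55, endothelial markers 6.95 to 8.05 and leukocyte markers 5.32 to 6.63, all above SC of day 0, and their part in these values was not tested. SC of day 8 stood above all EC arrays of day 8 in 23 members (52.3%), as did 16.3% of all genes.

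Taking the responses against each other, the SC response minus the EC response had a median of -0.60 on day 2, against -0.03 over all genes, and was below 0 in 32 of 44 members. The count of 32 has no share of all genes beside it here. Of the 44 differences, 1 was called, that of Nop58 (11.5% of all genes in either direction). The next smallest adjusted p values were those of Mrto4 (0.0768) and Utp20 (-0.80, SE 0.31, adjusted p = 0.0989). On day 4, 0 members were called (4.24% of all genes) and the median was -0.09. On day 8, 0 were called (2.2% of all genes) and the median was 0.12. In limma at an unadjusted p under 0.05 there were 12 lower on day 2, 2 higher and 1 lower on day 4, and 4 higher and 0 lower on day 8. These last counts were not made over all genes, so how far they exceed the background is not known. Without SC day 2 replicate 2, 3 responses of day 2 were called smaller in SC, against 6.8% of all genes.

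**Figure D5:**
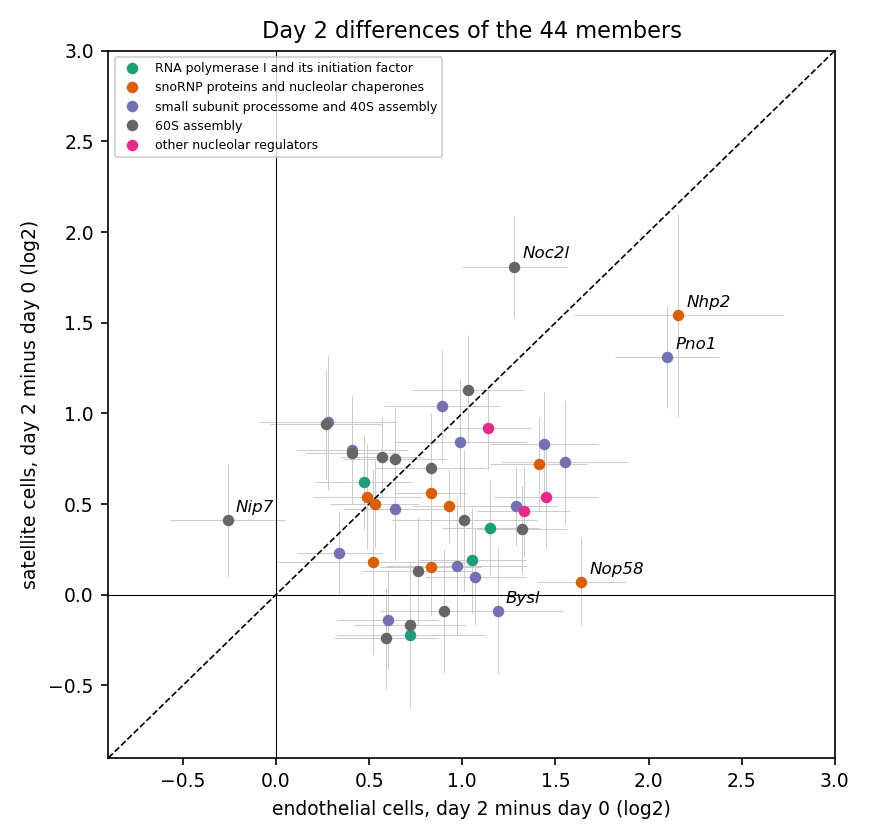
Day 2 minus day 0 log2 difference of each member in endothelial cells (x axis) and satellite cells (y axis), coloured by role, with SE of the fit as bars and the line of equal change dashed. Most points lie right of 0 and below the line, and Nop58 lies far below it, at 1.64 in EC and 0.07 in SC.

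The members that hold an E-box can be set beside those that do not. The median difference in EC on day 2 was 1.01 over the 12 with one (range 0.41 to 2.10) and 0.91 over the 28 without (range -0.26 to 2.16), and in SC 0.68 and 0.44. Of the 17 that rose in EC 6 had an E-box, and of the 23 others with a promoter entry 6 had one. These values are descriptive.

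Myc rose in EC on all 3 days after injury. It measured 5.64, 4.76 and 5.39 in EC on day 0, 9.17, 9.05 and 8.86 on day 2, 8.74, 8.49 and 8.86 on day 4 and 7.57, 7.23 and 8.00 on day 8. The rise was 3.76 on day 2 (SE 0.30, adjusted p = 1.59e-07), 3.43 on day 4 (SE 0.30, adjusted p = 5.7e-07) and 2.34 on day 8 (SE 0.30, adjusted p = 0.00012). On day 4 Myc was near its day 2 level, and the member mean was lower than on day 2. In SC it was already high before injury, at 9.02, 8.57 and 8.60 on day 0 and 8.06, 8.90 and 8.16 on day 2 (-0.36, SE 0.30, adjusted p = 0.425). SC stood above EC on day 0 by 3.47 (SE 0.30, adjusted p = 2.73e-08), and the responses differed by -4.12 on day 2 (SE 0.43, adjusted p = 3.47e-06).

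Of the Myc partners and rivals, Max was not called on day 2 in EC (-0.31) or SC (-0.03), and Mycn, a relative of Myc, was not called either (-0.75 and -0.34). Mxd4, which competes with Myc for Max, fell by 1.05 in EC (SE 0.31, adjusted p = 0.0348) and by 1.07 in SC (SE 0.31, adjusted p = 0.0113). The EC fall was not called without EC day 0 replicate 2 or 3 or EC day 2 replicate 1 or 2 (adjusted p up to 0.197), and the SC fall was not called without replicate 3 of SC day 0 (adjusted p = 0.0548) or of SC day 2 (adjusted p = 0.0725). Mxd1, another rival, rose in SC by 2.22 (SE 0.48, adjusted p = 0.00133), where it measured 9.73, 7.52 and 8.62 on day 2 and 6.76, 6.36 and 6.07 on day 0. The leukocyte markers on those SC arrays were highest on replicate 1 and lowest on replicate 2, as Mxd1 was. Whether this RNA came from satellite cells was not tested.

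The dividing cell genes (9 tested, Mki67 among them) had their highest EC group mean on day 4. In EC they averaged 4.42, 4.17 and 4.04 on day 0, 5.92, 6.86 and 6.33 on day 2, 7.27, 7.03 and 6.69 on day 4 and 6.68, 6.64 and 6.35 on day 8. Day 2 and day 4 arrays overlapped. In SC they averaged 4.24, 4.11 and 4.33 on day 0, 6.27, 7.61 and 6.45 on day 2, 7.19, 7.15 and 7.03 on day 4 and 7.27, 7.03 and 7.10 on day 8. Of the 9, 7 rose in EC on day 2 and 9 on day 4, while 17 members of the ribosome list rose in EC on day 2 and 1 on day 4. The part that division plays in the members' values was not tested.

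Other ribosome biogenesis genes, 91 that were tested from a longer list, were counted beside the members. On day 2 in EC 9 of 91 rose (9.89%, against 3.73% of all genes) and 0 fell, with a median of 0.52. In SC 3 rose (3.3%, against 10.9% of all genes) and 0 fell, with a median of 0.31. The 3 largest rises in EC were Rpf2, a 60S factor (2.02, SE 0.54, adjusted p = 0.0223), Nat10, which acetylates ribosomal RNA (1.84, SE 0.28, adjusted p = 0.000235), and Rrp12, an export factor (1.52, SE 0.28, adjusted p = 0.00172). Nat10 measured 7.44, 6.76 and 6.71 in EC on day 2, against 5.02, 5.35 and 5.03 on day 0, and 6.28, 6.31 and 6.46 in SC on day 2, against 5.65, 5.87 and 6.16 on day 0. Day 2 arrays lay above day 0 arrays in both cell types, and the responses differed by -1.38 (SE 0.39, adjusted p = 0.0244), a call lost without EC day 0 replicate 1 or 3, EC day 2 replicate 1, SC day 0 replicate 3 or SC day 2 replicate 1 (adjusted p from 0.053 to 0.073). In SC the rises were Eif6, which keeps the subunits apart (1.07, SE 0.23, adjusted p = 0.00152), Utp18 (1.02, SE 0.32, adjusted p = 0.0196) and Nol9, a kinase of ribosomal RNA processing (1.02, SE 0.30, adjusted p = 0.015). Leaving out single arrays ended some of these calls: Rpf2 without EC day 0 replicate 2 or 3 or EC day 2 replicate 1 or 2 (adjusted p up to 0.0918), Eif6 without SC day 0 replicate 1 or SC day 2 replicate 3 (0.85 and 0.88), Nol9 without replicate 3 of SC day 0 or day 2 (0.79 and 0.95), and Utp18 without SC day 0 replicate 2 or 3 or SC day 2 replicate 1 or 3 (adjusted p up to 0.114).

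Of the 17 EC calls of day 2, 10 stood in every alternative run, namely those of Nop58, Gar1, Utp20, Heatr1, Ltv1, Pno1, Noc2l, Mrto4, Mybbp1a and Gnl3. In SC the calls of Noc2l and Pno1 did so.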

How the data were processed

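The deposited values are log2 levels made by the authors with RMA, per the submitters' processing notes, from mouse gene arrays hybridised with amplified cDNA. RMA corrects background, normalizes by quantiles across arrays, which can hide a shift shared by all genes, and summarises probe sets. Its version and the genome build are not given in the sources used here. The table holds 24479 probe sets, 1198 without a symbol. Groups came from titles, which match the source name in 24 of 24 samples. In 12 samples the cell type field, and in 18 the time point field, names another group than the title does; neither was used.

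Probe sets above their array's median on at least 3 arrays were kept, the brighter where a symbol had 2, giving 14064 genes. A limma model (version 3.58.1, in R 4.3.3) gave each of the 8 groups its own mean over all 24 arrays, left 16 residual degrees of freedom, and moderated variances by eBayes. Tests were two-sided with Benjamini-Hochberg adjustment over all genes. Later days were compared with day 0, neighbouring days with each other, SC with EC on each day, and the responses with each other. The procedure was tested on simulated data with independent normal noise and set differences on EC arrays of day 2. These data held no outlying arrays and no mixture of cells, so the test does not bear on either. Members and lists were chosen with earlier results of these data known. Of 96 listed other ribosome biogenesis genes 91 had a named probe set and were tested. Values per array are given for all 4 polymerase members, the 3 members of each other role with the largest difference from day 0, members called lower, and members whose response differed. Other ribosome biogenesis genes were named where their rise was among the 3 largest. Alternatives were other filters, scalings, variance models, array weights, replicate blocks and leaving out each array.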

Additional observations from a re-analysis of the deposited data

Results flagged for a closer look

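For the listed genes the change from day 0 was called different between SC and EC arrays. The contrast was the interaction of the fit (SC response minus EC response, each later day against day 0, limma with adjustment over all genes). On SC arrays the mean of satellite cell markers was 8.73 on day 0 and 5.05 on day 2. That of leukocyte markers was 3.99 and 9.94. A change within satellite cells and a change in the cells sorted cannot be told apart here. Nop58 differed by -1.57 on day 2 (SE 0.34, adjusted p = 0.00405), with all 3 EC arrays of day 2 above EC of day 0 and overlap in SC. Nat10, the ribosomal RNA acetyltransferase, differed by -1.38 on day 2 (SE 0.39, adjusted p = 0.0244), and the call was lost on leaving out any of 5 single arrays, with adjusted p of 0.053 (EC day 0 replicate 1), 0.0543 (EC day 0 replicate 3), 0.0551 (SC day 2 replicate 1), 0.0636 (SC day 0 replicate 3) and 0.073 (EC day 2 replicate 1). Myc differed by -4.12 on day 2 (adjusted p = 3.47e-06), by -3.00 on day 4 (adjusted p = 0.000239) and by -2.00 on day 8 (adjusted p = 0.0135, 0.0507 without EC day 8 replicate 3). Mxd1 differed by 2.23 on day 2 (SE 0.68, adjusted p = 0.0367), a call lost in 10 of the alternatives (adjusted p up to 0.116, without SC day 2 replicate 1). Whether the Mxd1 RNA on SC arrays of day 2 came from satellite cells was not tested.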

How the results depend on the processing

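Of 1176 recomputed counts of called members, 1126 stayed within 1.5 times the reported count, and of 1457 recomputed member calls 1371 were kept, 86 lost and 0 reversed. For the 31 other called differences of the genes named beside the members, 1011 of 1075 were kept and 64 lost, with 0 reversed. For each call, 24 of the alternatives left out 1 array. Leaving out an array outside the groups compared changes the estimated spread but not the difference, so these totals do not measure how firm a call is. Of the day 2 calls against day 0, 10 of 17 in EC and 2 of 5 in SC stood in every alternative. The 17 rises in EC on day 2 became 16 to 19 under all settings that kept every array. On leaving out 1 array they became 11 (without EC day 2 replicate 1, against 2.86% of all genes) to 18. Counts that moved follow, with SC and EC day 0 comparisons named by day. Percentages in brackets are the share of all genes called the same way under the same setting. With arrays centred on their medians the SC fall of Mxd4 on day 2 was -0.99 and no longer called. SC day 4 against day 2 then had 2 members lower (5.97%). SC against EC had 2 higher on day 0 (6.14%) and 0 on day 4 (4.39%). With the 75th percentile, SC day 2 had 3 higher (10.1%) and SC against EC on day 4 had 3 (6.17%). Array weights gave 0 lower on SC day 4 (6.07%), 3 lower for SC day 4 against day 2 (8.01%) and 1 higher on EC day 8 (1.69%). For SC against EC they gave 2 higher on days 0 and 4 (8.21% and 6.24%) and 1 lower on day 8 (7.05%). The day 2 difference of responses then had 2 lower (7.74%). Fitting 1 cell type at a time gave 0 lower on SC day 4 (4.45%) and 1 higher on EC day 8 (1.4%). Without the fold minimum there were 13 higher on SC day 2 (14.7%), 1 on SC day 8 (5.87%) and 2 on EC day 4 (3.75%). SC day 4 against day 2 then had 2 lower (7.21%). SC against EC had 10, 5 and 15 higher on days 0, 4 and 8 (10%, 7.34% and 9.41%).

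Leaving out 1 array gave 4 to 5 higher on SC day 2. SC day 4 had 2 to 4 higher and 0 to 1 lower, and SC day 8 had 0 to 1 higher. SC day 4 against day 2 had 1 to 3 lower (3 without SC day 2 replicate 2, 8.51% of all genes). EC day 4 had 0 to 2 higher (0 without EC day 0 replicate 3, 2.47%, and 2 without replicate 2, 2.52%). EC day 8 had 0 to 2 higher (2 without EC day 0 replicate 2, 0.761%). EC day 4 against day 2 had 0 to 1 lower (0 without EC day 2 or EC day 4 replicate 1 or 2, 0.0284% to 0.0782%). SC against EC had 3 to 5 higher on day 0 (3 without EC day 0 replicate 1 or 3, 7.32% and 6.85%). On day 4 it had 0 to 3 (0 without EC day 4 replicate 2 or SC day 4 replicate 3, 4.5% and 4.51%). The 3 were reached without EC day 4 replicate 3 (4.79%). On day 8 it had 6 to 9 higher and 0 to 1 lower. The differences of responses had 1 to 3 lower on day 2 (3 without SC day 2 replicate 2, 6.8%) and 0 to 1 on day 4. Counts and ranges printed without a percentage have no share of all genes beside them here. The cause of these shifts was not tested. With the replicate number of the titles as a fixed block, or with the day and the number in the array labels as a random block (estimated correlation 0.048), 17 members rose in EC and 5 in SC on day 2, and no count moved by over 1.5 times. Of 12 pairs of SC and EC arrays of one day and title number, 11 share the number in the array label, whose meaning is not given in the sources used here, and 4 had correlations of group-centred values over 0.1 (range -0.06 to 0.20), so neither number was taken to pair samples in the reported values. Rrp1b did not pass the stricter filter, which left 43 members. The median SE of a member's difference was 0.28, and a difference under a doubling was not called whatever its p.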
